A study of Rattus norvegicus with 8 samples.

Results

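The phase 2 conjugation enzymes described here are the UDP-glucuronosyltransferases (UGT), the cytosolic sulfotransferases (SULT) and the glutathione S-transferases (GST) of the rat liver. Members were chosen by gene symbol alone: a probe belonged to them if its accession mapped to a rat symbol starting with Ugt1 to Ugt3, Sult1 to Sult6, or Gst of the alpha, kappa, mu, omega, pi or theta class, followed by the letter or number of a single enzyme. This gave 41 genes, 11 UGT, 11 SULT and 19 GST genes, of 36211 features on the array, read by 49 probes. A RefSeq gene table lists 62 protein-coding genes with such symbols, so 41 of the 62 could be measured. The Eucommia group (4 arrays) was male Wistar/ST rats whose drinking water held leaf extract of Eucommia ulmoides (a tree that also gives a leaf tea), and the Control group (4 arrays) was male Wistar/ST rats without the extract. Both groups ate a high-fat diet and drank high-fructose water for 5 weeks, so the Control arrays are not those of healthy, chow-fed animals, and the age of the rats is not given in the sources used here. Liver RNA was measured with 1-colour Agilent arrays. The comparison asks which of these genes differ in the liver when the leaf extract is added to the drinking water.

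Conjugation makes drugs, hormones, bile pigments and reactive metabolites more water-soluble, so that they can leave through bile or urine. UGT enzymes sit in the endoplasmic reticulum and attach glucuronic acid taken from UDP-glucuronic acid. SULT enzymes work in the cytosol and attach sulfate from the donor PAPS, and GST enzymes couple glutathione to electrophiles. Hepatocytes are rich in all these families, and nuclear receptors, the aryl hydrocarbon receptor and Nrf2 are known to control many of the genes.

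Values are log2 signals relative to the 75th percentile of the same array, so 0 is the signal at that percentile. Each difference is the Eucommia value minus the Control value in log2 units. Signals of different probes are not comparable with each other, because probes differ in how brightly they bind. All Eucommia arrays lay on slide 2 and all Control arrays on slide 1, and the effects of slide and group therefore cannot be told apart here. On the Eucommia arrays 70.7% ± 1.16 of spots were well above background, against 59.8% ± 1.17 on the Control arrays (SD, n = 4 each), and the dimmest spot of that kind reached 5.90 ± 0.15 raw units on Eucommia arrays and 12.7 ± 1.05 on Control arrays. The part of this gap in dim genes was not tested. Sample numbers in the labels run to 4 per group, and no other label states that each array is a separate rat, so a p-value here reflects only the spread among these arrays, which may be partly technical. The 10 hepatocyte markers examined were above background on every array, with summed linear signals of 6424 to 7643 (Eucommia) and 7210 to 8280 (Control) in units of the 75th percentile. The difference was positive for 1 of these 10 markers, with a median of -0.16, and 1 fell (Tf, the plasma iron carrier, -0.55, adjusted p = 0.00653 in limma). The part of this shift in the members' values was not tested. In whole liver, fewer cells of a type and less RNA per cell cannot be told apart.

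Few conjugation enzymes differed between the groups. Of the 36 members tested, 1 rose in the Eucommia group (Ugt1a6) and 1 fell (Gstm5), at an adjusted p below 0.05 in limma with Benjamini-Hochberg adjustment over 24209 genes. Over all genes tested, 18.6% were higher and 6.18% lower, 24.8% in either direction. These shares include genes that met the filter through the 4 Eucommia arrays alone, which raises the share called higher. With a filter of all 8 arrays, which 35 of the 36 members met, 2263 of 19377 genes were higher and 1336 lower. By family the counts were 1 higher and 0 lower of 10 UGT genes, 0 and 0 of 9 SULT genes, and 0 higher and 1 lower of 17 GST genes. Without adjustment, limma gave a p below 0.05 for 1 UGT, 1 SULT and 3 GST genes, 13.9% of the members, against 35.9% of all genes tested. Both called members were dim, and most calls in the whole table were also among dim genes. Among genes with a mean log2 signal above 0, 4% of 9051 were higher and 5.87% lower, 9.87% in either direction, and 0 of the 30 members in that range were, with 1 of them at an unadjusted p below 0.05 (Gsta2), against 20.5% of all genes above 0. Among genes at or below 0, 27.3% of 15158 were higher and 6.37% lower, 33.7% in either direction. Of the 6 members in that range 1 was higher and 1 lower, which is near the share of all such genes. The groups did not overlap for 17.2% of the genes above 0 and 35.6% of those at or below it, and they did not overlap for 3 members, all at or below 0 (Ugt1a6, Sult2b1 and Gstm5).

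**Figure D1:**
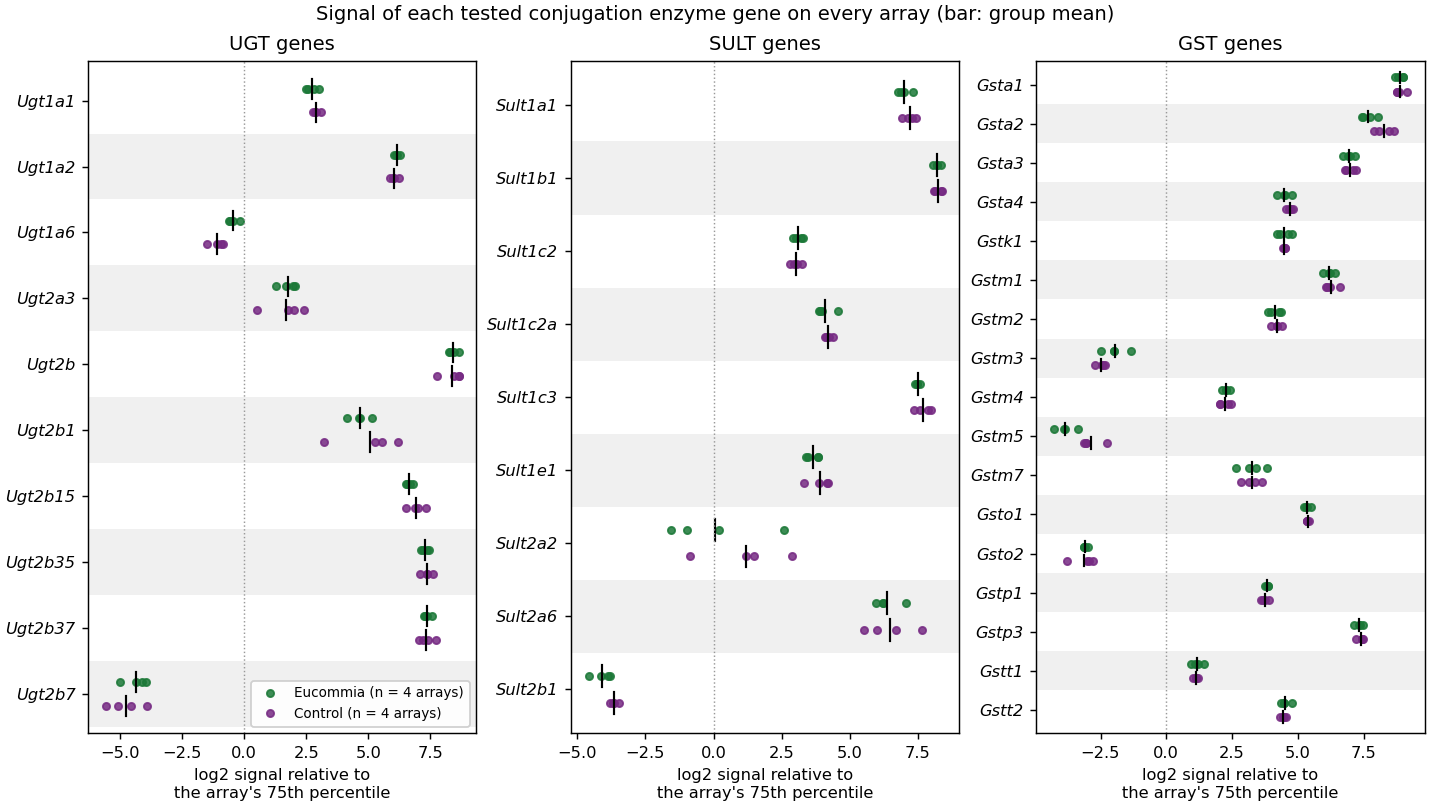
Log2 signal relative to the array's 75th percentile (x axis) for each tested UGT, SULT and GST gene (y axis), with 1 point per array (Eucommia above Control, n = 4 each) and a bar at the group mean. The groups are apart for Ugt1a6, Gstm5 and Sult2b1, and the points of Sult2a2 and Ugt2b1 spread most widely.

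The families could be set side by side by their counts and medians. The median difference was 0.03 for UGT, -0.21 for SULT and -0.00 for GST genes, beside 0.02 over all genes tested and -0.04 over all genes with a mean signal above 0. The difference was negative for 4 of 10 UGT, 8 of 9 SULT and 9 of 17 GST genes. Over all genes tested 47.3% were negative, and 57.7% of those with a mean signal above 0 were. The SULT median was the lowest of the 3 families in 20 of 21 alternative settings, where it lay between -0.47 and -0.11. The exception left out Control replicate 3 and gave -0.17 for UGT, -0.16 for SULT and -0.02 for GST genes. Some settings could not change this order, so the count overstates how far it was checked. Median centring moved all 3 medians by the same amount, and the trended robust variance and the replicate block moved none. Quantile normalization, which could change the order, gave 0.10 for UGT, -0.12 for SULT and 0.04 for GST genes. With normexp and quantile normalization together the medians were 0.01, -0.11 and 0.01. The difference between the families was not tested.

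How closely the data bound each member can be read from the 95% confidence interval of its difference. The interval lay within 2-fold in both directions for 7 of 10 UGT, 7 of 9 SULT and 14 of 17 GST genes, 77.8% of the members, against 74.9% of all genes tested. For members with a mean signal above 0 it did so for 26 of 30 (86.7%), against 94.8% of all genes in that range. The typical spread between arrays was 0.25 for UGT, 0.25 for SULT and 0.19 for GST genes (median SD within groups), and 0.21 for all members above 0, against 0.14 for all genes above 0. The arrays therefore left a difference of 2-fold or more within the interval of 8 members: Ugt1a6, Ugt2b1, Ugt2b7, Sult2a2, Sult2a6, Gsta2, Gstm3 and Gstm5.

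**Figure D2:**
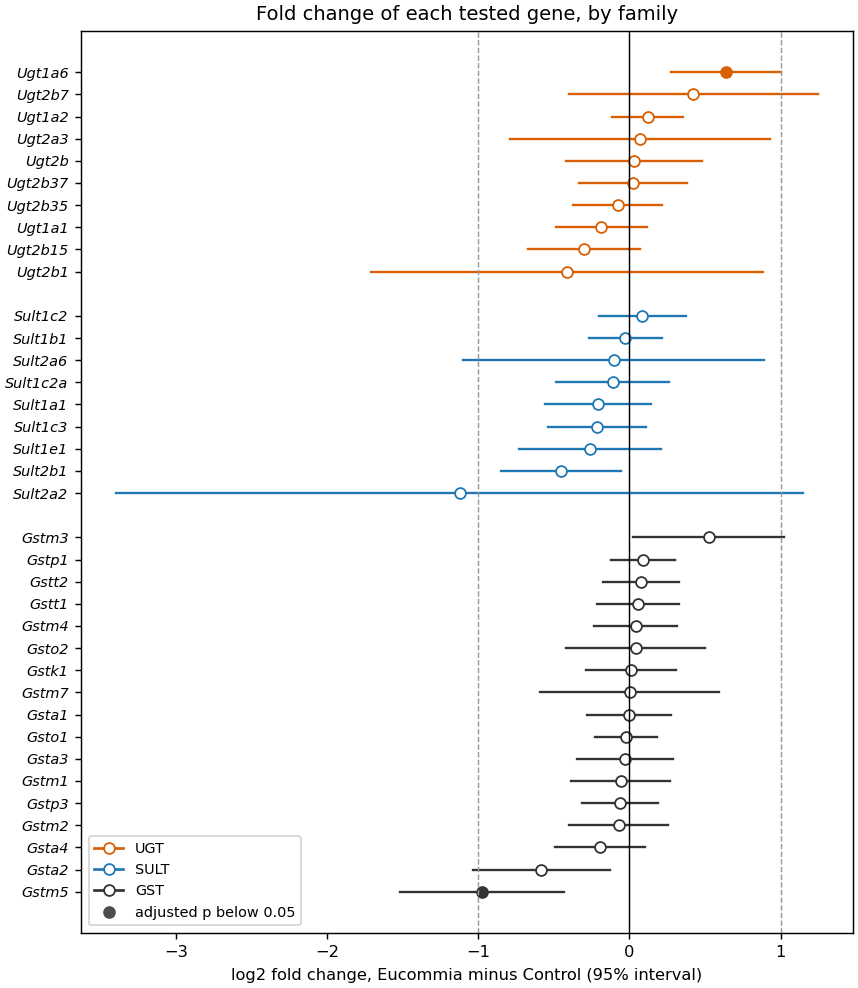
Difference in log2 signal, Eucommia minus Control (x axis), of each tested member (y axis), with its 95% confidence interval from limma (n = 4 arrays each). Ugt1a6 lies at 0.64 and Gstm5 at -0.98, and the interval of Sult2a2 runs from -3.39 to 1.15.

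Ugt1a6, which conjugates planar phenols and is a known target of the aryl hydrocarbon receptor, rose in the Eucommia group. Its log2 signal was -0.57, -0.17, -0.47 and -0.61 on the Eucommia arrays, against -1.12, -0.95, -1.48 and -0.84 on the Control arrays. All 4 Eucommia values were above all 4 Control values, which 28.7% of all genes tested also showed in 1 direction or the other. The means were -0.46 ± 0.20 and -1.10 ± 0.28 (SD, n = 4 each), a difference of 0.64 ± 0.16 (SE), or 1.56-fold, with an adjusted p of 0.0180 in limma. The probe was above background on all arrays. The call was lost without Eucommia replicate 2 (difference 0.55, adjusted p = 0.0591) or Eucommia replicate 3 (0.65, adjusted p = 0.0505), and with arrays centred on their median (0.38, adjusted p = 0.0832). Rat Ugt1a transcripts share their downstream exons and differ in the first exon, and the probe sequences were not used here, so signal from other Ugt1a transcripts cannot be told apart.

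The start region of Ugt1a6 is shown because it is the only UGT member called. Of the 10 UGT promoters it alone holds the core of the element that the aryl hydrocarbon receptor binds. A link between this core and the call was not tested. The window (RefSeq, GRCr8) is chr9:96194768-96195067 on the + strand, 250 bases before and 50 bases after the annotated start, with capitals marking GCGTG and GTTAAT, each on either strand. GCGTG was found once, with its first base at -133 from the start, and GTTAAT, a core of the site that the liver factor HNF1 binds, at -190 and -29.
Ugt1a6: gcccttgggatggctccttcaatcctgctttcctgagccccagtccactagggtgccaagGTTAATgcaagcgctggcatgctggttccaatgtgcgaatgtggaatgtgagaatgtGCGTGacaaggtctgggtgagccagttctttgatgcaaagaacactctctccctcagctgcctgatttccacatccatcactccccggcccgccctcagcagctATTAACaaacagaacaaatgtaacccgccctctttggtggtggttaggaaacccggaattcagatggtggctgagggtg
GCGTG occurred on either strand in 29.7% of 33469 rat promoters of this length, so the match is a description of the sequence and not a bound site. The receptor itself, Ahr, was dim, with a mean log2 signal of -3.93 in the Eucommia group and -4.55 in the Control group, a difference of 0.62 ± 0.43 (SE) with an adjusted p of 0.349 in limma. It was above background on 4 Eucommia arrays and 1 Control array, so its Control mean is mostly background.

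The brightest UGT probes belonged to the Ugt2b group, enzymes that conjugate steroids, bile acids and drugs, and none of these passed the test. Ugt2b gave 8.28, 8.26, 8.44 and 8.64 on the Eucommia arrays, against 8.45, 8.64, 7.77 and 8.63 on the Control arrays. Ugt2b37 gave 7.25, 7.27, 7.36 and 7.56 (Eucommia) against 7.03, 7.40, 7.18 and 7.72 (Control). In both genes the Eucommia values lay inside the Control range, or for Eucommia replicate 4 of Ugt2b at its upper edge, and the differences were 0.03 ± 0.20 and 0.02 ± 0.16 (SE). Ugt2b35 gave 7.12, 7.20, 7.42 and 7.35 (Eucommia) against 7.37, 7.34, 7.08 and 7.61 (Control), a difference of -0.08 ± 0.13. Ugt2b15 gave 6.54, 6.52, 6.80 and 6.66 (Eucommia) against 7.0, 6.86, 6.53 and 7.33 (Control), a difference of -0.30 ± 0.16 with an adjusted p of 0.229 in limma. The Ugt2b15 groups overlapped through the low value of Control replicate 3.

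Among the remaining UGT genes, Ugt1a1, the enzyme that conjugates bilirubin, gave 2.80, 2.56, 3.0 and 2.49 on the Eucommia arrays and 2.83, 2.88, 2.78 and 3.09 on the Control arrays. Its difference of -0.18 ± 0.13 (SE) had a 95% interval of -0.49 to 0.12, so that a change of 2-fold lay outside the interval. Ugt1a2 differed by 0.12 ± 0.10, Ugt2a3 by 0.07 ± 0.38 and Ugt2b7 by 0.42 ± 0.36. Ugt2b7 was above background on 3 Eucommia arrays and 1 Control array, and was the only tested member not above background on all 8.

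Ugt2b1, which conjugates steroids and many drugs, varied more than the other UGT genes. It gave 4.66, 4.13, 5.15 and 4.63 on the Eucommia arrays, against 5.26, 5.56, 3.20 and 6.2 on the Control arrays. Control replicate 3 was 2 or more log2 units below the other 3 Control arrays, and these 3 were all above the Eucommia arrays. The difference was -0.41 ± 0.57 (SE) with an adjusted p of 0.654 in limma, and without Control replicate 3 it was -1.03 ± 0.28 with an adjusted p of 0.0313. The low value was not confined to this gene. Control replicate 3 was the lowest Control array for 7 of 10 UGT genes, 3 of 9 SULT genes and 3 of 17 GST genes, against 18.5% of all genes tested, and Control replicate 4 was the highest Control array for 7 of 10 UGT genes, against 24.2% of all genes. Genes of one family are not independent of each other, and no cause was tested.

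**Figure D3:**
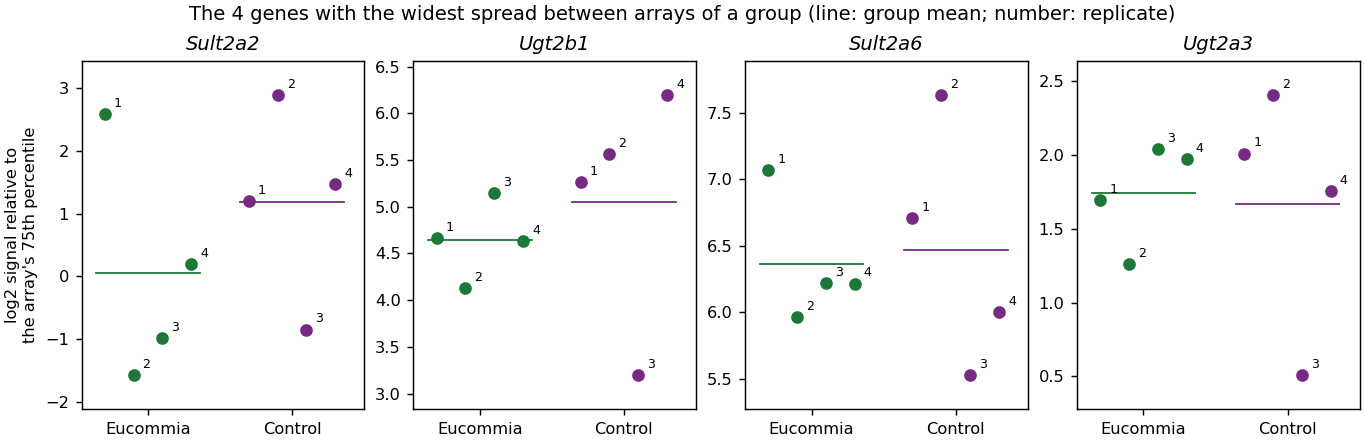
Log2 signal relative to the array's 75th percentile (y axis) on each Eucommia and Control array (x axis, replicates 1 to 4 of each group) for the 4 members with the widest spread, Sult2a2, Ugt2b1, Sult2a6 and Ugt2a3. Sult2a2 and Sult2a6 share their highest and lowest array in each group, and Ugt2b1 and Ugt2a3 share a low value in Control replicate 3.

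No SULT gene passed the test, and the brightest SULT probes differed little between groups. Sult1b1, which sulfates thyroid hormones and small phenols, gave 8.07, 8.20, 8.22 and 8.35 on the Eucommia arrays, against 8.37, 8.37, 8.09 and 8.13 on the Control arrays. Its difference was -0.03 ± 0.11 (SE), with groups that overlapped over nearly their whole range. Sult1c3, of a subfamily known for sulfating N-hydroxy arylamines in rats, gave 7.47, 7.41, 7.59 and 7.48 (Eucommia) against 7.37, 7.56, 7.88 and 7.99 (Control), a difference of -0.21 ± 0.14. Sult1a1, the main phenol sulfotransferase, gave 6.87, 6.78, 7.0 and 7.32 (Eucommia) against 7.45, 7.15, 7.28 and 6.91 (Control), a difference of -0.21 ± 0.16. The 95% interval lay within 2-fold for all 6 tested Sult1 genes, which also included Sult1e1 (-0.26 ± 0.21), the oestrogen sulfotransferase, Sult1c2 (0.09 ± 0.13) and Sult1c2a (-0.11 ± 0.16).

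The Sult2a genes encode hydroxysteroid and bile acid sulfotransferases, which are known for a strong sex bias in rat liver. Sult2a6 gave 7.07, 5.96, 6.22 and 6.22 on the Eucommia arrays, against 6.71, 7.64, 5.52 and 6.0 on the Control arrays. Sult2a2 gave 2.59, -1.57, -0.98 and 0.20 (Eucommia) against 1.2, 2.89, -0.85 and 1.47 (Control). In both genes Eucommia replicate 1 was the highest and Eucommia replicate 2 the lowest array of its group, and Control replicate 2 was the highest and Control replicate 3 the lowest. Sult2a2 spanned 4.16 log2 units within the Eucommia group and 3.74 within the Control group, and its SD within groups, 1.70, was at percentile 99.9 of all genes tested. The Sult2a6 SD of 0.74 was at percentile 97.7. The differences were -1.12 ± 1.0 for Sult2a2 and -0.10 ± 0.44 for Sult2a6 (SE), and a 2-fold lower level in the Eucommia group lay within the 95% interval of both. Single arrays moved these values: Sult2a2 was -1.96 without Eucommia replicate 1 and -0.55 without Control replicate 2, and Sult2a6 was -0.42 without Control replicate 3 and turned to 0.29 without Control replicate 2.

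The start regions of both genes are printed because they are the 2 SULT genes with the widest spread between arrays. They are also the only 2 of 10 SULT promoters with the HNF1 core GTTAAT. This core was also in 4 of 10 UGT and 2 of 16 GST promoters, against 7.45% of 33469 rat promoters. The windows (RefSeq, GRCr8, 250 bases before to 50 bases after the start) are chr1:85104483-85104782 for Sult2a2 and chr1:84097759-84098058 for Sult2a6, both on the - strand. Capitals mark GTTAAT, searched on both strands, and TATAAA, searched on the sense strand, and the matches do not overlap.
Sult2a2: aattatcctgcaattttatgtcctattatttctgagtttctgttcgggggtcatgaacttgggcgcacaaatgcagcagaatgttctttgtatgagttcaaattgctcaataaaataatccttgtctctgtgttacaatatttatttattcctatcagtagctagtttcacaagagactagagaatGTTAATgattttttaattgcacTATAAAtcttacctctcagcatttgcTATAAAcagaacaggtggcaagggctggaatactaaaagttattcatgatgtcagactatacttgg
Sult2a6: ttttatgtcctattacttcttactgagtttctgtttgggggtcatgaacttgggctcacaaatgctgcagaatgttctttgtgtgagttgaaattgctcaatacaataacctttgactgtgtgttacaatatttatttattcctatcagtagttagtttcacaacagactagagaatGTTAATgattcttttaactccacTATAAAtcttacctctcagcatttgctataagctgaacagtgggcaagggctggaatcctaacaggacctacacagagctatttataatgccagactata
The HNF1 core starts at -64 in Sult2a2 and at -73 in Sult2a6. Over 282 aligned bases 258 were identical (91.5%), so the windows are near copies and their shared motif is not an independent observation. Probes of such close copies may bind each other's transcripts, and how far this occurred was not tested.

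Sult2b1, which sulfates cholesterol and other 3β-hydroxysteroids, was dim, at -4.58, -3.80, -4.13 and -3.89 on the Eucommia arrays, against -3.79, -3.71, -3.45 and -3.65 on the Control arrays. All 4 Eucommia values lay below the Control values, with Eucommia replicate 2 next to Control replicate 1. The difference was -0.45 ± 0.17 (SE), with an adjusted p of 0.0936 in limma. It passed the threshold with quantile normalization (-0.71, adjusted p = 0.0150), cyclic loess (-0.67, adjusted p = 0.0211), median centring (-0.71, adjusted p = 0.0110) and normexp with quantile normalization (-0.14, adjusted p = 0.0399). These were the only 4 of 21 alternative settings in which it passed, and it passed in 0 of 8 fits that left out an array.

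Gstm5, a mu class enzyme known from testis and brain, was the only GST gene that passed the test, and it fell. Its log2 signal was -3.36, -4.27, -3.84 and -3.89 on the Eucommia arrays, against -3.12, -2.26, -3.04 and -3.04 on the Control arrays. All Eucommia values were below all Control values, and Control replicate 2 stood above the other Control arrays. The means were -3.84 ± 0.37 and -2.86 ± 0.41 (SD, n = 4 each), a difference of -0.98 ± 0.24 (SE), or 1.97-fold lower, with an adjusted p of 0.0164 in limma. Without Control replicate 2 the difference was -0.77 with an adjusted p of 0.0239. The call was lost without Eucommia replicate 2 (-0.83, adjusted p = 0.0538) or Eucommia replicate 4 (-0.96, adjusted p = 0.0522). With normexp and quantile normalization together the difference was -0.32 (adjusted p = 0.0143), against -1.23 with quantile normalization alone. The probe was above background on all arrays but far below the 75th percentile.

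The Gstm5 start region is printed because this is the only GST gene called. Its window holds the cores of both the antioxidant and the xenobiotic response element, and a link between these cores and the call was not tested. The window (RefSeq, GRCr8) is chr2:198219519-198219818 on the + strand, 250 bases before to 50 after the start, and capitals mark TGACNNNGC and GCGTG, searched on both strands, and TATAAA on the sense strand.
Gstm5: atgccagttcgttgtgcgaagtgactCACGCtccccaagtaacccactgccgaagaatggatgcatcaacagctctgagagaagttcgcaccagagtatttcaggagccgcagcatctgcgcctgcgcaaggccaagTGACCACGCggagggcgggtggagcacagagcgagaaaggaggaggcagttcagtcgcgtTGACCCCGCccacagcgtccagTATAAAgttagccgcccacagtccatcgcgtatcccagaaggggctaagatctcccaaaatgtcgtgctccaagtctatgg
TGACNNNGC, the core of the antioxidant response element that Nrf2 binds, starts at -113 and -53. GCGTG, read on the other strand as CACGC, starts at -224 and at -109, where it overlaps the first antioxidant core, and TATAAA starts at -31. The antioxidant core was found in 6 of 16 GST promoters, 0 of 10 UGT promoters and 0 of 10 SULT promoters, against 12.1% of all promoters, and GCGTG in 6 of 16 GST, 1 of 10 UGT and 1 of 10 SULT promoters, against 29.7%. The 6 GST genes with the antioxidant core were Gsta1, Gsta2, Gsta3, Gstm5, Gstm7 and Gstp1, and among them Gstm5 alone passed the test, as a fall. Promoters were matched for 36 of the 41 members.

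The alpha class, the main GST protein of hepatocytes, gave the brightest GST probes. Gsta1 gave 8.69, 8.82, 8.99 and 8.98 on the Eucommia arrays, against 8.83, 9.14, 8.77 and 8.76 on the Control arrays, a difference of -0.00 ± 0.12 (SE). Gsta3, an alpha enzyme whose mouse form detoxifies the aflatoxin epoxide, gave 6.71, 6.90, 7.17 and 6.99 (Eucommia) against 7.08, 7.22, 6.82 and 6.78 (Control), a difference of -0.03 ± 0.14. The intervals of both lay well within 2-fold. Gsta2 was the exception. It gave 7.45, 7.47, 7.74 and 8.05 on the Eucommia arrays, against 7.88, 8.07, 8.45 and 8.63 on the Control arrays, with 1 Eucommia array inside the Control range. The difference was -0.58 ± 0.20, with an adjusted p of 0.0647 in limma and a 95% interval of -1.03 to -0.13. It passed without Control replicate 1 (-0.71, adjusted p = 0.0308), without Eucommia replicate 4 (-0.70, adjusted p = 0.0444), with array weights (-0.72, adjusted p = 0.0137), with median centring (-0.84, adjusted p = 0.0101) and with a trended robust variance (adjusted p = 0.0416). With normexp and quantile normalization together it was -0.10 (adjusted p = 0.668), and it did not pass in 15 of 21 alternative settings. Gsta4, which removes the lipid peroxidation product 4-hydroxynonenal, differed by -0.20 ± 0.13.

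The pi class was as close between groups. Gstp3 gave 7.37, 7.31, 7.49 and 7.12 on the Eucommia arrays, against 7.20, 7.44, 7.42 and 7.47 on the Control arrays, a difference of -0.06 ± 0.11 (SE). Gstp1, whose protein marks preneoplastic foci in rat liver, differed by 0.09 ± 0.09. It had the second narrowest spread of the members, with values of 3.73 to 3.86 (Eucommia) and 3.61 to 3.89 (Control). Among the mu enzymes, Gstm1, Gstm2, Gstm4 and Gstm7 differed by -0.06 ± 0.14, -0.07 ± 0.14, 0.04 ± 0.12 and 0.00 ± 0.26. The dimmer Gstm3 gave -2.48, -2.0, -1.99 and -1.32 (Eucommia) against -2.70, -2.41, -2.33 and -2.45 (Control), a difference of 0.52 ± 0.22 with an adjusted p of 0.124 in limma. Without Eucommia replicate 1 the Gstm3 difference was 0.70 with an adjusted p of 0.0390. The kappa, omega and theta genes Gstk1 (0.01 ± 0.13), Gsto1 (-0.02 ± 0.09), Gsto2 (0.04 ± 0.20), Gstt1 (0.06 ± 0.12) and Gstt2 (0.08 ± 0.11) did not pass, and for each of them the interval excluded a 2-fold change.

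**Figure D4:**
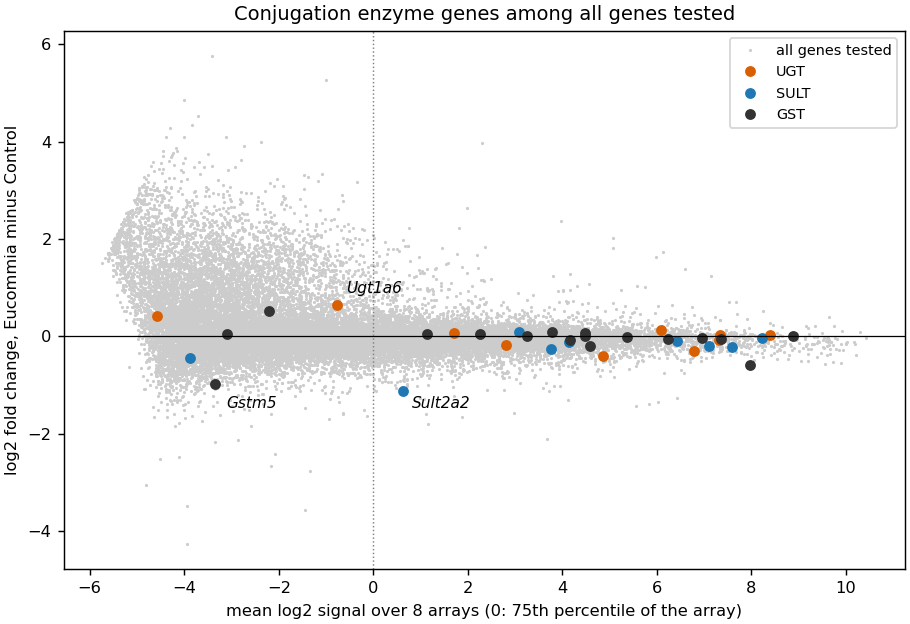
Difference in log2 signal, Eucommia minus Control (y axis), against the mean log2 signal over the 8 arrays (x axis) for all 24209 genes tested, with the UGT, SULT and GST genes marked. Of the members, 30 lie above a mean of 0, where 9.87% of all genes were called, and 6 lie at or below it, where 33.7% were.

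For 8 members a second probe gave a further measurement from the same arrays. The 2 probes gave close group differences for Ugt1a2 (0.12 and -0.04), Ugt2b (0.03 and 0.08), Sult1c2a (-0.11 and 0.02), Gstp1 (0.09 and 0.10) and Gstt2 (0.08 and -0.02). They stood further apart for Sult1c2 (0.09 and -0.23), Sult1b1 (-0.03 and -0.31) and Gsta2 (-0.58 and -0.28). Both Gsta2 probes were lower in the Eucommia group and neither passed the test (the second had an adjusted p of 0.322 in limma). The second Sult1b1 probe had an adjusted p of 0.121. Probes of near-identical genes may share targets, so disagreement of this size cannot be assigned to a transcript.

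**Figure D5:**
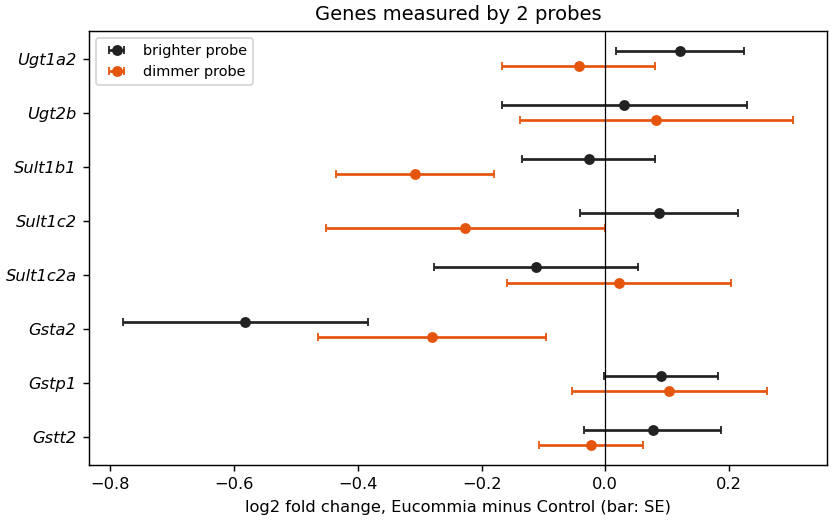
Difference in log2 signal, Eucommia minus Control, with its SE, for both probes of each of the 8 members that have 2 (n = 4 arrays each). The Gstp1 probes lie at 0.09 and 0.10, and the Gsta2 probes at -0.58 and -0.28.

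The genes that serve these enzymes were followed through lists for each step. Of 14 tested genes that supply the conjugating groups, 0 rose and 2 fell, beside 18.6% higher and 6.18% lower over all genes tested, and 4% and 5.87% of those with a mean signal above 0. The 2 that fell were Ugp2, which makes UDP-glucose (-0.34 ± 0.10, adjusted p = 0.0414), and Ggct, which breaks down gamma-glutamyl peptides (-0.61 ± 0.19, adjusted p = 0.0442). Ugdh, which makes UDP-glucuronic acid, differed by -0.19 ± 0.15, Papss2, which makes PAPS, by -0.25 ± 0.10, and Gclc, which limits glutathione synthesis, by -0.30 ± 0.14, and none of them passed in limma. The median of the list was -0.20, and 2 of 14 were positive. The call of Ugp2 held in 8 of 21 alternative settings and that of Ggct in 11 of 21, including in 2 and 1 of the 8 fits that left out an array.

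Of 21 tested conjugating enzymes of other families, 1 was called higher and 2 lower, with a median of -0.13, beside 18.6% higher and 6.18% lower over all genes tested. The higher call, Ptges, a membrane enzyme of prostaglandin E2 synthesis, met the filter through the 4 Eucommia arrays alone. Such a filter favours a higher Eucommia value, so the Ptges call supports nothing. No Control array showed Ptges well above background, and its measured means were -2.21 (Eucommia) and -4.75 (Control). Against the detection limit of the Control slide, a mean of -4.19, the Eucommia mean was at least 3.93-fold higher. This minimum holds for the main processing only, and it cannot be told apart from a slide effect. With normexp and quantile normalization together the Ptges difference was 0.61, against 2.54 in the main processing. Hpgds, the prostaglandin D2 synthase of the sigma GST class, fell by 0.79 ± 0.19 (adjusted p = 0.0163), and Glyatl1, an acyltransferase of glycine conjugation, fell by 0.31 ± 0.10 (adjusted p = 0.04997, just under the threshold). The call of Hpgds held in 5 of 8 fits that left out an array, and that of Glyatl1 in 1 of 8.

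Transport and breakdown genes gave 1 call each, beside 24.8% of all genes tested and 9.87% of those above 0 called in either direction, with list medians of -0.11 and 0.02. Of 14 transporters of conjugates, 0 rose and 1, the organic anion exporter Abcc5, fell by 0.34 ± 0.10 (adjusted p = 0.0405 in limma), while Abcc2, which exports conjugates into bile, differed by -0.03 ± 0.16. Of 13 tested genes for hydrolysis of conjugates, Arsg, a lysosomal sulfatase, rose by 0.57 ± 0.10 (adjusted p = 0.0026), and its call held in all 21 alternative settings. Its mean log2 signal was -1.45, in the range at or below 0, where 27.3% of all genes were called higher. Abcc5 kept its call in 2 of 8 fits that left out an array.

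Of 22 tested receptors and factors known to control phase 2 genes, 2 rose and 3 fell, beside 18.6% higher and 6.18% lower over all genes tested, and the list median was -0.17. Mafg, a small partner of Nrf2, differed by 0.39 ± 0.11 (adjusted p = 0.0310) and Nr1h4, the bile acid receptor FXR, by 0.39 ± 0.10 (adjusted p = 0.0166). Foxa2, a liver pioneer factor, fell by 0.65 ± 0.18 (adjusted p = 0.0263), Nr3c1, the glucocorticoid receptor, by 0.45 ± 0.14 (adjusted p = 0.0454) and Stat5b, which carries the growth hormone signal, by 0.29 ± 0.09 (adjusted p = 0.0342), all in limma. The receptors best known for control of these families did not pass: Nr1i2 (PXR) differed by 0.17 ± 0.11, Nr1i3 (CAR) by -0.11 ± 0.23 and Nfe2l2 (Nrf2) by -0.21 ± 0.16. The Mafg difference was 0.11 (adjusted p = 0.440) as the mean over its probes and 0.13 (adjusted p = 0.364) with median centring, and the Nr1h4 difference was 0.13 (adjusted p = 0.342) with median centring, all short of the threshold. In the fits that left out an array, the call held in 3 of 8 for Mafg, 7 of 8 for Nr1h4, 4 of 8 for Foxa2, 1 of 8 for Nr3c1 and 2 of 8 for Stat5b.

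Many conjugation enzymes are known to be richest near the central vein, so markers of liver zones were examined. Of 10 pericentral markers 1 was called higher, beside 18.6% of all genes tested and 27.3% of those at or below 0. This was Lgr5, which met the filter through the Eucommia arrays alone, with no Control array above background, so its call supports nothing. Of 10 periportal markers 0 passed in limma. Their summed signals overlapped between groups, at 435 to 722 (Eucommia) and 480 to 716 (Control) for pericentral markers and 1025 to 1328 (Eucommia) and 1230 to 1252 (Control) for periportal markers. Such sums weigh the brightest markers most, here Cyp2e1 (mean log2 signal 8.72) and Arg1 (9.01). The overlap therefore says little on the dimmer zone markers. All 9 tested macrophage markers had a negative difference and none passed, with summed signals of 86.8 to 137 (Eucommia) and 116 to 188 (Control). Calls were made among markers of other cell types, with Col1a1 of 8 stellate cell and fibroblast markers (0.83), Cldn4 and Cftr higher and Epcam (-0.52) lower of 5 cholangiocyte markers, Ctrb1 (1.79) and Cela2a (1.11) higher of 5 pancreatic acinar markers, Mb (0.97) the only tested muscle marker, Cdh5 (1.01) higher and Fcgr2b (-0.45) lower of 6 endothelial markers, Cd3d (0.85) of 6 T and NK cell markers, and Elane of 3 neutrophil markers. Over all genes tested 24.8% were called in either direction, and 33.7% of those at or below 0. The difference was positive for 6 of 8 stellate cell and fibroblast, 3 of 5 cholangiocyte and 3 of 5 acinar markers. It was positive for 2 of 6 endothelial, 3 of 6 T and NK cell and 1 of 3 neutrophil markers. Cftr and Elane, like Lgr5, were above background on no Control array, so their calls support nothing. Pecam1, 1 of the 2 positive endothelial markers, was also above background on no Control array, and Pnlip, a positive acinar marker, on 1. The part of these cell types in the results was not tested.

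The other 5 members were not tested because their probes were not well above background on enough arrays. Sult4a1, a brain sulfotransferase, was above background on 2 Eucommia arrays and 0 Control arrays, at 6.48 to 7.42 raw units (Eucommia) and 2.71 to 5.82 (Control). That gap lies below the detection limit of the Control slide. Ugt2a1, known from olfactory epithelium, and Sult1d1, Gstm6l and Gstt4 were not well above background on any array, and no level is given for them.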

How the data were processed

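Liver RNA of 8 samples was hybridised to 1-colour Agilent arrays, with 500 ng of total RNA labelled per array, as given in the labels. The deposited files hold intensity values that Agilent Feature Extraction (version 10.1.1.1, named in the submitters' processing notes) wrote. Per the file headers, its processed signal is background-subtracted, with no normalization between arrays. The flags in the deposited files, used for filtering, mark control, outlier and well-above-background spots.

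After log2 transformation the 75th percentile of each array was subtracted. Control and outlier spots were left out, and no spot was saturated. A RefSeq table (GRCr8), matched by unversioned accession, named 16336 of 41012 probes. A gene is its probe with the highest mean signal. Unnamed probes of 1 accession form 1 feature. A feature was tested if well above background on at least 4 of 8 arrays. The Eucommia and Control groups were tested in limma 3.58.1 (R 4.3.3), 2-sided, with Benjamini-Hochberg adjustment over all 24209 features and a threshold of 0.05. For a gene seen in no array of 1 group, the fold given is a minimum under this processing. It was taken against the lowest signal well above background on each array, or the probe's own if higher. The number of arrays limits the precision.

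The members, lists and motifs were chosen with earlier results of these data known. Values on every array are given for members past the threshold and for the 4 tested members of each family with the highest mean signal, and for others where the text turns on them. In other lists the genes past the threshold are named, and further genes were chosen after their values were seen. Alternatives were other normalizations, background correction with normexp (offset 50), other filters, probe rules, variance models, array weights, a replicate block and each array left out. A slide block could not be fitted.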

Additional observations from a re-analysis of the deposited data

Results flagged for a closer look

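Of 72 groups of 4 arrays examined, 2 held an array far from the other 3, by a rule that chance meets in about 5% of groups. Sult1c2a was 4.59 in Eucommia replicate 2, while the other Eucommia arrays were 3.88 to 3.98. Gstm5 was -2.26 in Control replicate 2, while the other Control arrays were -3.12 to -3.04. No cause was tested.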

How the results depend on the processing

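Of 24209 genes tested, 4500 were higher and 1496 lower. The count of genes called was 11409 with median centring, 12329 with no filter on dim probes and 3599 with a filter of all 8 arrays, and 3242 to 5628 with an array left out. The share of calls that were higher was 75.1%, but 59.6% with quantile normalization, 60.4% with normexp followed by quantile normalization, 32.4% with median centring and 42.6% without the filter. Median centring shifted the median of all genes to -0.24, and the members called under it were all lower: 2 UGT, 3 SULT and 4 GST genes. SULT calls numbered 1 with quantile normalization (alone or after normexp) or cyclic loess, and 2 with no filter. GST calls numbered 2 with normexp followed by quantile normalization, a trended robust variance or array weights, and 3 with no filter. The calls added with no filter were Sult1d1, Sult4a1, Gstm6l and Gstt4, which failed the main filter. Sult4a1 was above background on 2 Eucommia arrays and the others on no array, so these calls rest on background signal. With an array left out, UGT calls ran from 0 to 2, SULT calls stayed at 0 and GST calls ran from 0 to 2. Of 36 members, 13 passed in at least 1 of 21 alternatives and 23 in none, and no called value changed sign. A filter of at least 2 arrays of each group above background, chosen after seeing the data, called 4029 genes with the same member counts. Unless the setting itself tests fewer arrays or other genes, the cause was not tested. Same-numbered arrays of the groups correlated at -0.10 to -0.03 over genes, so the numbers do not pair the samples. With the replicate number as a block 5025 genes were called, with 1 UGT, 0 SULT and 1 GST gene among them. In that fit Gsta2 passed (adjusted p = 0.0122 in limma) and Gstm5 did not (adjusted p = 0.0636). The series table equals the processed signal and was not run as an alternative. Dim genes are limited by the background, which differed between slides.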
